A study of Rattus norvegicus with 3 samples.

Results

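The creatine kinases Ckb and Ckm, the adenylate kinases Ak1 and Ak3 and 5 subunits of the AMP-activated protein kinase (AMPK), namely Prkaa1, Prkaa2, Prkab1, Prkab2 and Prkag1, were examined in the medullary thick ascending limb (mTAL) of the rat kidney. Members were all probe sets whose only symbol in the platform's probe-to-gene table is one of these 9 genes. This gave 12 of the 31099 probe sets of the array, for 8 of the 9 genes, out of 14217 genes with a probe set of their own; no probe set had Ak1 as its only symbol, and Ak1 is not analysed here. The study measured 3 arrays of 1 group, with no other tissue, genotype or treatment. All tissue came from male Sprague-Dawley rats aged 7 to 8 weeks, and rats had been given intraperitoneal heparin (250 u) and furosemide (1 mg), a blocker of the sodium cotransporter of this segment, 30 min earlier. The segment was enriched on 33.3% Percoll from outer medulla digested with collagenase and hyaluronidase. The preparations can thus hold other tubule and vessel cells, and no label states whether a preparation came from 1 rat or from several. Errors below therefore cover only the spread between these 3 arrays, which may be technical.

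Creatine kinases move phosphate between ATP and creatine, and so hold a store of high-energy phosphate near the sites where ATP is used. Adenylate kinases interconvert adenine nucleotides and turn a small fall in ATP into a larger rise in AMP. AMPK senses that rise. It is a trimer of a catalytic alpha, a scaffolding beta and a nucleotide-binding gamma subunit, and when active it favours pathways that make ATP over those that spend it. The mTAL spends much ATP on the sodium pump that drives salt reabsorption.

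The creatine kinase genes and the AMPK beta subunit genes each had 1 member above background and 1 below it, and the 250 bases before their annotated starts are shown so that each pair can be read side by side. The sequences are those of RefSeq, build GRCr8, written 5′ to 3′ on the strand of the gene, and 8 of the 8 measured members matched the table. They lie at chr6:136553465-136553714 on the minus strand (Ckb), chr1:88189211-88189460 on the plus strand (Ckm), chr12:46248845-46249094 on the plus strand (Prkab1) and chr2:187946151-187946400 on the plus strand (Prkab2). Capitals mark matches, on either strand, to the TATA box core TATAA, the box spelled CCAAT, the E-box CANNTG, the GC box GGGCGG or the motif AAGGTCA, which estrogen-related receptors bind.
Ckb: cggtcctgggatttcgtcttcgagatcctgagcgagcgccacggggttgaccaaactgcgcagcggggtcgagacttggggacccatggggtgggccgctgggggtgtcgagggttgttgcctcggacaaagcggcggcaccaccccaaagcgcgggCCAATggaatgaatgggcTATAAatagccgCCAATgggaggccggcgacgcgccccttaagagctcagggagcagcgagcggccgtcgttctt
Ckm: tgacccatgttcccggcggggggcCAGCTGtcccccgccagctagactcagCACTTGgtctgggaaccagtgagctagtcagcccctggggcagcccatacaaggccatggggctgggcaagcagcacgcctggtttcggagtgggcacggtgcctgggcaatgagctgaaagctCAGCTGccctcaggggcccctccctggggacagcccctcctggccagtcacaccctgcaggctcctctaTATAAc
Prkab1: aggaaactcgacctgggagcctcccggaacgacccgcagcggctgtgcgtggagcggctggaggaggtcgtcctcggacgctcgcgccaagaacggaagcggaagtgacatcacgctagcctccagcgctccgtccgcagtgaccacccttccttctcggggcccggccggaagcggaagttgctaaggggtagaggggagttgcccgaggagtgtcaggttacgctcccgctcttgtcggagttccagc
Prkab2: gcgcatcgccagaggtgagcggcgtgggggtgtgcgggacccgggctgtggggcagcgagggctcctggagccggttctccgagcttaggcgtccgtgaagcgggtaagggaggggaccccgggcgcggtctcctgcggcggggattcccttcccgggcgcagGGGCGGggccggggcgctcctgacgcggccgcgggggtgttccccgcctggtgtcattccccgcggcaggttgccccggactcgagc

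The Ckb window held 1 TATAA, beginning 75 bases before the annotated start, between 2 CCAAT matches that begin 93 and 63 bases before it. The Ckm window held 1 TATAA, beginning 6 bases before the start, and 3 E-box matches, beginning 226, 199 and 75 bases before it. Among 33469 rat promoters of the same length, 24.0% held TATAA, 34.0% CCAAT, 65.5% CANNTG, 30.5% GGGCGG and 3.99% AAGGTCA. The Prkab2 window held 1 GC box match, beginning 87 bases before the start, and the Prkab1 window held none of the letters searched. The share of G and C was 64.8% for Ckb, 65.6% for Ckm, 66.0% for Prkab1 and 76.0% for Prkab2, with a median of 51.2% over all promoters. No match overlapped another, and a match is a run of letters, not a measured site.

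A probe set was called detected when its log2 signal lay above a background cutoff on the same array by a one-sided limma test, at a Benjamini-Hochberg adjusted p under 0.05 over all 20826 probe sets with 1 gene. The cutoff was the 95th percentile of 84 probe sets for 69 genes known from other tissues, such as brain, pancreas and retina. It came to signals of 340, 269 and 304 on replicates 1, 2 and 3. By this test 7 of the 12 member probe sets were detected, against 48.3% of all probe sets. At the level of genes, 6 of the 8 measured members had a detected probe set, against 56.1% of all genes. The median of the mean log2 signal minus the cutoff, called the distance below, was 2.81 over the member probe sets and 0.49 over all probe sets. Signals of different probe sets depend on how strongly each hybridises, so no gene is ranked against another here.

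The members fell into separate sets. All 7 detected probe sets lay above the cutoff on all 3 arrays, by 2.59 to 5.68 log2 units in the mean, and the other 5 lay below it on all 3. The limma adjusted p of the detected probe sets ran from 0.000142 to 0.000405. The detected genes were Ckb, Ak3, Prkaa1, Prkaa2, Prkab1 and Prkag1. Ckm and Prkab2 were not detected by any of their probe sets. The undetected probe sets had signals between 4.95 and 216.

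**Figure D1:**
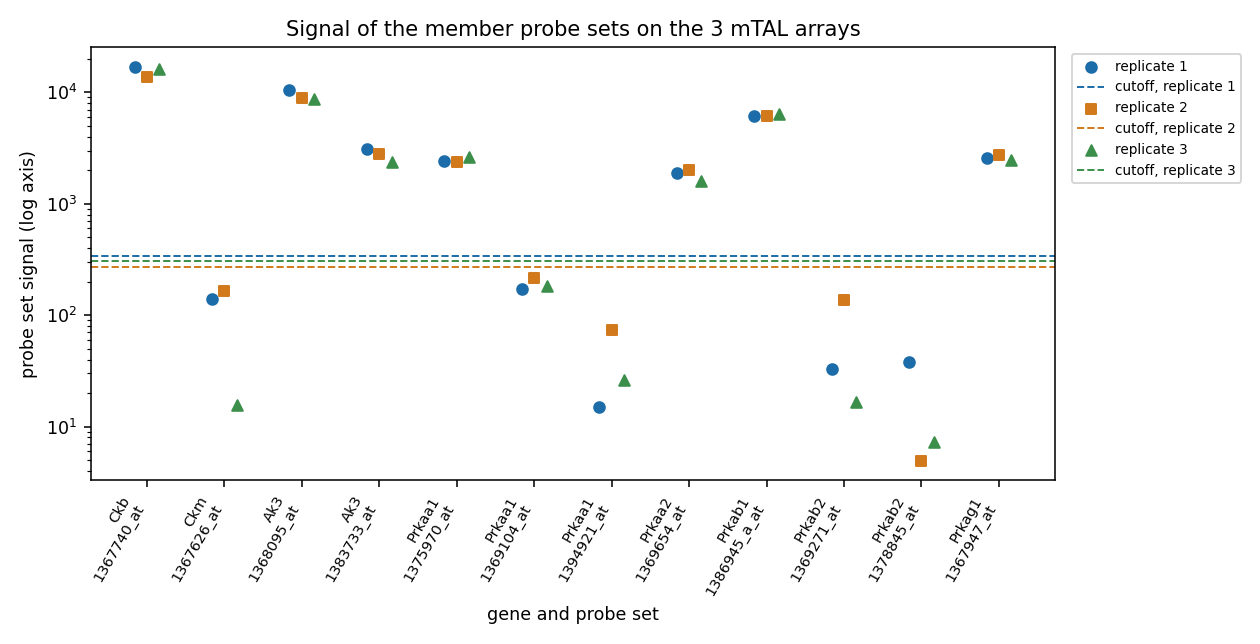
Signal of the 12 member probe sets (log axis) on the 3 mTAL arrays, with 1 point per array and the background cutoff of each array as a dashed line. Points of Ckb, both Ak3 probe sets, 1 Prkaa1 probe set, Prkaa2, Prkab1 and Prkag1 lie above all 3 cutoffs, and those of Ckm, Prkab2 and the other Prkaa1 probe sets lie below them.

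Ckb, the cytosolic creatine kinase first known from brain, had signals of 16849, 13841 and 16205 on replicates 1, 2 and 3. The arrays lay close together, and each was more than 5 log2 units above its own cutoff. The mean was 15632 ± 1584 (SD, n = 3), at a distance of 5.68 log2 units from the cutoff (95% confidence interval 5.29 to 6.08, limma adjusted p = 0.000142). Markers of neurons and glia were detected for 1 of 11 measured genes, against 56.1% of all genes. The 1 detected was Mbp, the gene of myelin basic protein. These markers also belong to the list that set the cutoff, so few of them could exceed it. Their summed signal was 1046, 1373 and 1258 on replicates 1, 2 and 3, and their part in the Ckb signal was not tested.

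Ckm, the cytosolic creatine kinase of skeletal and heart muscle, had signals of 141, 163 and 15.5 on replicates 1, 2 and 3. All were below the cutoff, and replicate 3 was the lowest, with the highest array at 10.5 times its signal. The mean was 107 ± 79.6 (SD, n = 3), 2.09 log2 units below the cutoff (difference -2.09, 95% confidence interval -4.41 to 0.22, limma adjusted p = 1.00). At this signal the level of Ckm could not be told from background, which does not show that the transcript is absent. Of 20 measured skeletal muscle markers, which were kept out of the cutoff, 2 were detected, against 56.1% of all genes. Trim63, a ubiquitin ligase of muscle, had signals of 480, 894 and 969, and was not detected without replicate 2 or without replicate 3 (limma adjusted p = 0.0941 and 0.0619). Myh1, annotated as a fast myosin heavy chain, was detected by all 5 of its probe sets, with signals between 1348 and 45438, while Myh2, Myh4, Acta1, Atp2a1 and Mb were not detected. Myosin genes share sequence, so which of them these probe sets measure is uncertain. The summed signal of the 20 markers, by the highest probe set of each, was 45522, 47893 and 42285 on replicates 1, 2 and 3, of which 1 Myh1 probe set gave 43678, 45438 and 39684. None was listed at 0.

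The mitochondrial partners divided in the same way. Ckmt1, the ubiquitous creatine kinase of the mitochondrial intermembrane space, had signals of 13136, 12109 and 13081 and lay 5.40 log2 units above the cutoff (limma adjusted p = 0.000142). Ckmt2, its counterpart in muscle mitochondria, had signals of 16.5, 57.5 and 46.9 and was not detected, at a distance of -3.10 log2 units. Thus 2 of the 4 measured creatine kinases were detected, near the share over all genes (56.1%), so the count does not set this family apart. The 2 were 1 cytosolic and 1 mitochondrial gene, and the 2 that are characteristic of muscle were not detected.

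Genes that supply creatine were detected for 3 of 4 measured genes, against 56.1% of all genes. Slc6a8, the sodium-coupled creatine transporter, had 2 probe sets, at 9992 ± 615 and 4229 ± 442 (SD, n = 3), both detected. Slc16a12, a membrane carrier known to move creatine, also had 2 detected probe sets, at 23217 ± 1427 and 7038 ± 2362. Gamt, the enzyme of the last step of creatine synthesis, had signals of 539, 719 and 818 (1.17 log2 units above the cutoff, limma adjusted p = 0.00926). Its call was lost without replicate 2 (limma adjusted p = 0.0529). Gatm, the enzyme of the first step, is best known in kidney from the proximal tubule. Its higher probe set had signals of 96.2, 414 and 2024 on replicates 1, 2 and 3, above the cutoff on 2 arrays (limma adjusted p = 0.577), and its other probe set stayed between 6.95 and 16.4.

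Ak3, the mitochondrial matrix enzyme that uses GTP to phosphorylate AMP, was detected by both of its probe sets. The probe set tied to a RefSeq mRNA record had signals of 10469, 8910 and 8751 on replicates 1, 2 and 3. Its mean was 9377 ± 949 (SD, n = 3), 4.95 log2 units above the cutoff (95% confidence interval 4.54 to 5.36, limma adjusted p = 0.000142). The probe set tied to another GenBank record had signals of 3088, 2817 and 2365. It lay 3.18 log2 units above the cutoff (95% confidence interval 2.71 to 3.64, limma adjusted p = 0.00021). On both, replicate 1 had the highest and replicate 3 the lowest signal, with the highest 1.20 and 1.31 times the lowest.

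Ak3 was the only one of the 4 measured adenylate kinases that was detected, against 56.1% of all genes. Ak4, another matrix enzyme of the family, had probe sets that differed. The higher had signals of 20.6, 160 and 1057 on replicates 1, 2 and 3, above the cutoff on replicate 3 only, and the lower had 12.2, 13.0 and 13.0. Ak5, known from brain, reached at most 60.8, and Ak7, known from ciliated cells, at most 9.68. None of these 3 genes passed the limma test.

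Ak4 and Gatm had the widest spread over the arrays among adenylate kinase and creatine supply genes (SD 2.84 and 2.20 log2 units), and markers of several other cell types were also higher on replicate 3 than on replicate 1. Taken by the highest probe set of each gene, replicate 3 exceeded replicate 1 for all 21 measured proximal tubule markers. They were above the cutoff in 3, 12 and 16 of 21 cases on replicates 1, 2 and 3, and their summed signal was 7151, 26101 and 83557. None of the 21 was at 0, and the lowest single value was 5.77. With all arrays Ak4 stood at -0.997 and Gatm at 0.51 log2 units from the cutoff. Leaving out replicate 1, 2 or 3 in turn gave 0.52, -1.12 and -2.40 for Ak4 and 1.68, 0.46 and -0.60 for Gatm, and neither was detected in any of these. Replicate 3 exceeded replicate 1 for 10 of 12 principal cell, 6 of 6 intercalated cell and 11 of 13 fibroblast and mural cell markers. For red blood cells it was 4 of 7, for thin limb 8 of 8 and for endothelium 9 of 11. For leukocytes it was 10 of 14, for neurons and glia 8 of 11, and for distal convoluted and connecting tubule 4 of 6. It was 10 of 20 for skeletal muscle, 4 of 14 for thick ascending limb and 30 of 69 for the background list. The share over all genes was not computed. The summed signals on replicates 1, 2 and 3 were 13971, 19202 and 28764 for principal cells and 1305, 2863 and 3502 for intercalated cells. They were 3111, 6744 and 7175 for fibroblasts and mural cells and 1833, 2358 and 6868 for red blood cells. Of the red blood cell sums, Hbb alone gave 1196, 1427 and 5881. The part of any of these cells in the Ak4 and Gatm signals was not tested, and fewer cells of a type cannot be told from less RNA per cell. On each of the 7 detected member probe sets, replicate 3 was between 0.32 log2 units below and 0.11 above the mean of the other arrays.

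**Figure D2:**
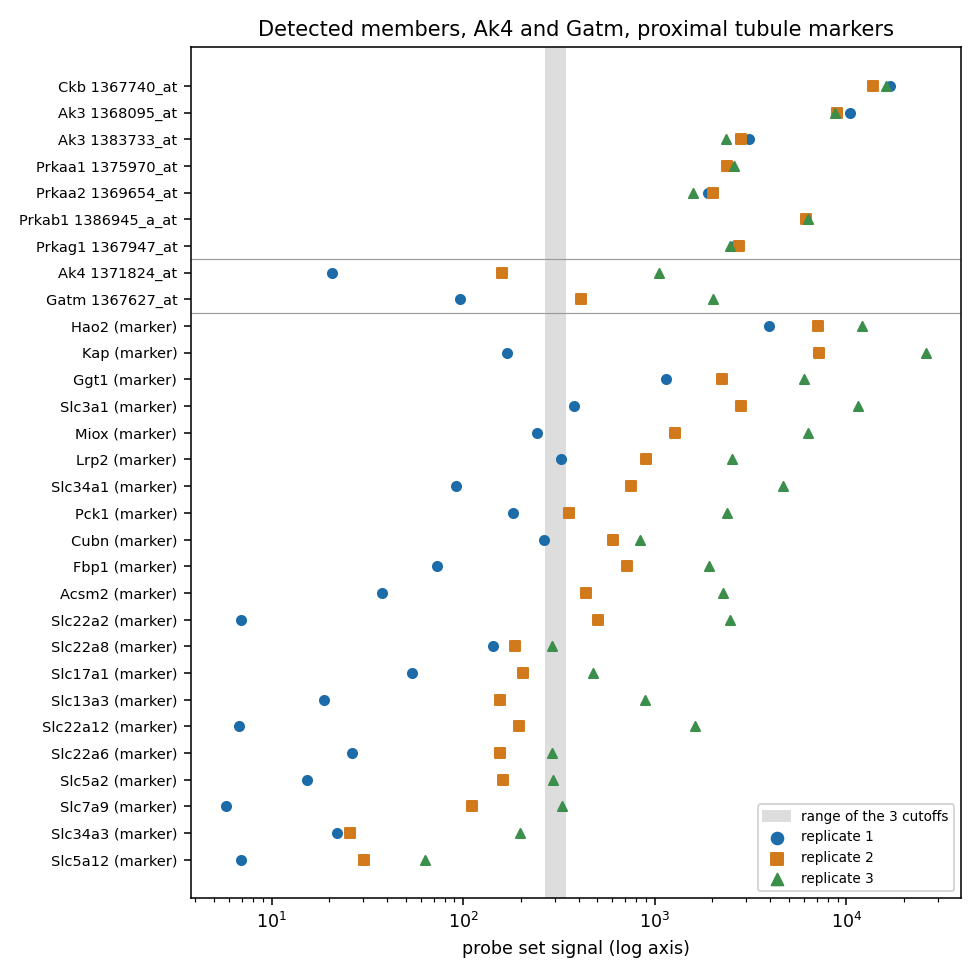
Signal (log axis) on replicates 1, 2 and 3 of the 7 detected member probe sets, of Ak4 and Gatm, and of 21 proximal tubule markers, with the range of the cutoffs in grey. The 3 points of each member lie together, while Ak4 (20.6, 160 and 1057), Gatm and the markers are spread, with replicate 3 highest.

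Among the AMPK genes both catalytic subunits, 1 scaffold and 1 nucleotide-binding subunit of the members were detected. Prkaa1, the alpha 1 catalytic subunit, had 3 probe sets that did not fall on the same side of the cutoff. The highest of them had signals of 2438, 2373 and 2603 and lay 3.03 log2 units above it (95% confidence interval 2.59 to 3.46, limma adjusted p = 0.000202). The probe set that the annotation ties to a RefSeq mRNA record had signals of 173, 216 and 182, at -0.68 log2 units from the cutoff. The lowest had signals of 15.1, 74.3 and 25.9, at -3.30 log2 units. The highest and the lowest are tied to other GenBank records. The call for Prkaa1 therefore rests on 1 of 3 probe sets.

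Prkaa2, the alpha 2 catalytic subunit, had 1 probe set, with signals of 1897, 2015 and 1591. The mean was 1834 ± 219 (SD, n = 3), 2.59 log2 units above the cutoff (95% confidence interval 2.08 to 3.10, limma adjusted p = 0.000405). Its SD of 0.18 log2 units was the largest among the detected member genes, taking the highest probe set of each. Of 7967 detected genes outside the members, those with the most similar profile over the 3 arrays were Foxk2 (Euclidean distance of centred log2 values 0.00323), Adamtsl2 (0.00499) and Crebbp (0.00919). With only 3 arrays such likeness is common, and 368 genes lay within a distance of 0.1.

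Prkab1, the beta 1 scaffold subunit, had signals of 6106, 6166 and 6328. Its SD of 0.03 log2 units was the smallest of all member probe sets, and it lay 4.35 log2 units above the cutoff (95% confidence interval 3.91 to 4.80, limma adjusted p = 0.000146). Prkab2, the beta 2 subunit, was not detected by either of its probe sets. The probe set tied to a RefSeq mRNA record had signals of 33.2, 136 and 16.6, at -2.84 log2 units from the cutoff, and the other had 38.0, 4.95 and 7.33, at -4.77. The upper bounds of their 95% confidence intervals were -0.83 and -3.05 log2 units, so both intervals lay below the cutoff.

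Prkag1, the gamma 1 subunit that binds adenine nucleotides, had signals of 2595, 2747 and 2479. The mean was 2607 ± 134 (SD, n = 3), 3.10 log2 units above the cutoff (95% confidence interval 2.63 to 3.57, limma adjusted p = 0.000222). Of the remaining gamma genes, Prkag2 was detected by 2 of its 4 probe sets, at 1407 ± 110 and 723 ± 185, while the others had 126 ± 32.6 and 102 ± 33.2. Prkag3, known from skeletal muscle, had signals of 109, 80.5 and 86.2 and was not detected. In all, 5 of the 7 AMPK subunit genes were detected, against 56.1% of all genes. It was 3 of 7 at the 99th percentile of the background probe sets (26.1% of all genes) and 3 of 7 with muscle markers added to the background list (23.8%).

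The detected members varied little between arrays. The SD of their log2 signal ran from 0.03 to 0.20, and the highest array exceeded the lowest by 1.04 to 1.31 times. Over the 11600 probe sets with a mean above the mean cutoff, the median SD was 0.18 and 55.7% had an SD under 0.2. The undetected member probe sets had SDs between 0.17 and 1.90, and the median below the cutoff was 0.68. Control probe sets of Actb and Gapdh differed by end, and the log2 excess of the 3′ end over the 5′ end grows as RNA degrades. On replicates 1, 2 and 3 it was 1.48, 1.18 and 1.95 for Actb and 0.508, 0.426 and 0.601 for Gapdh. The part of this excess in the spread of the members was not tested.

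**Figure D3:**
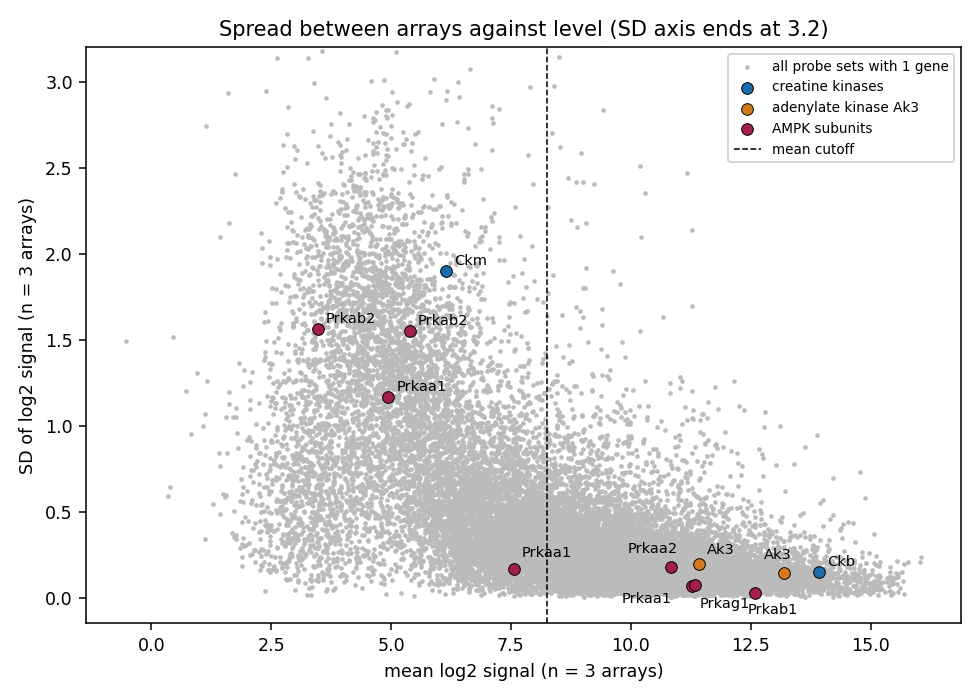
SD of log2 signal against mean log2 signal over the 3 arrays for all probe sets with 1 gene (grey) and for the members (coloured by family), with the mean cutoff dashed. Detected members sit at an SD of 0.03 to 0.20, and Ckm, Prkab2 and 1 Prkaa1 probe set sit left of the cutoff with SDs above 1.

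Other settings of the background changed 1 or 0 of these 12 calls each. Raising the cutoff to their 99th percentile (a signal of 1160 to 1410) left 6 of the 12 member probe sets detected, against 20.0% of all probe sets. Prkaa2 was the one lost (0.50 log2 units above that cutoff, limma adjusted p = 0.104). With muscle markers added to the background list the count was also 6, against 18.1% of all, and Prkaa2 was again lost (0.40 log2 units, limma adjusted p = 0.258). Both of these cutoffs depend on few genes. On each array the 99th percentile lay between Krt10 (1347, 1101 and 1182) and Cela1 (1764, 1496 and 2140). The muscle markers add the Myh1 probe sets, with signals between 1348 and 45438 and an uncertain target. With the cutoff at the 90th percentile 7 were detected, against 59.7% of all. TrpnX, a bacterial control, gives a lower cutoff (its highest signal, 40.7 to 63.5), by which 8 were detected, against 74.2% of all, the added one being the RefSeq probe set of Prkaa1.

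**Figure D4:**
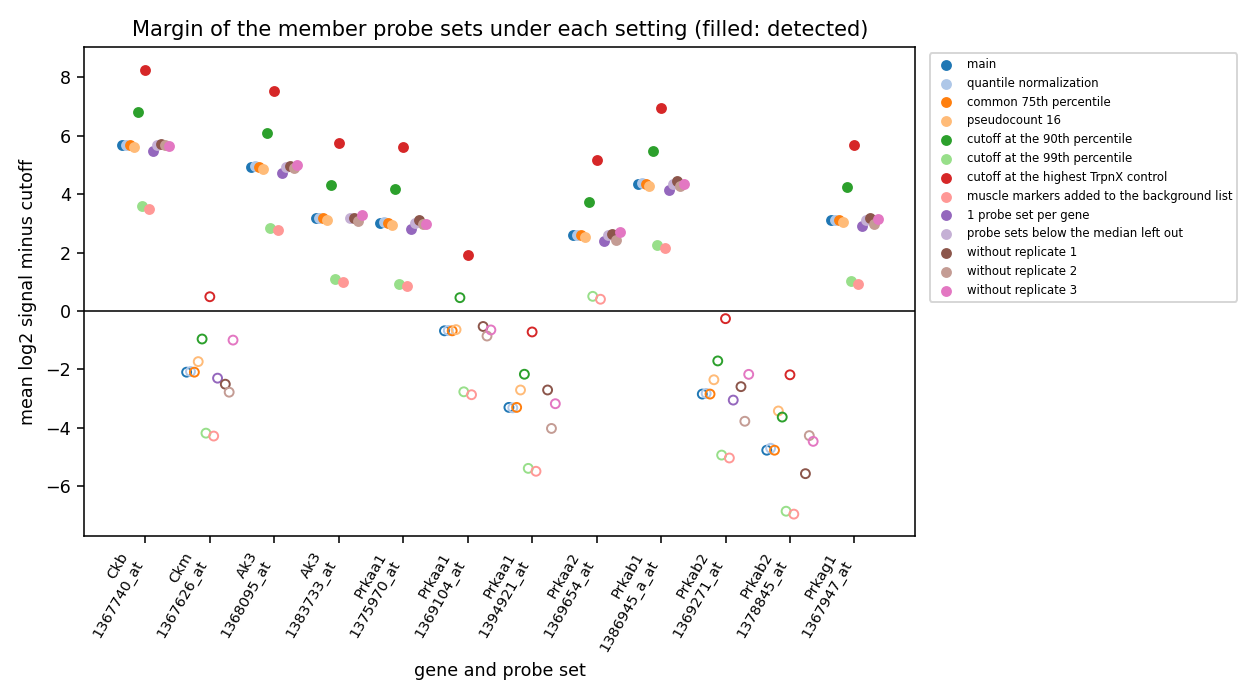
Mean log2 signal minus cutoff of the 12 member probe sets under the main and 12 other settings (colours), filled where detected. Ckb, Ak3, the highest Prkaa1 probe set, Prkab1 and Prkag1 stay filled in all settings that tested them, and Prkaa2 is open at the 99th percentile and with muscle markers in the background list.

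Of the genes that act on AMPK, 15 of 19 measured genes were detected (median distance of the highest probe set from the cutoff 2.49 log2 units, against 1.13 over all genes, of which 56.1% were detected). At the 99th percentile this was 7 of 19 (26.1% of all genes) and 7 of 19 with muscle markers in the background list (23.8% of all genes). Fnip2, a partner of folliculin that binds AMPK, had a signal of 10644 ± 1358 (SD, n = 3, 5.13 log2 units above the cutoff). Stk11, the gene of LKB1, the main kinase that activates AMPK, was not detected by any of its 3 probe sets, whose signals on the 3 arrays ran from 42.9 to 95.3, from 12.5 to 81.2 and from 3.44 to 17.2. This does not show that the Stk11 transcript is absent, and none of the 3 is tied to a RefSeq mRNA record. Transcripts of proteins that form a complex with LKB1 were detected, namely Cab39 (4414 ± 815) and Stradb (3897 ± 315). Those of Strada (1179 ± 63.7) and Cab39l (1721 ± 300) were detected too. Of the calcium-dependent kinases that also activate AMPK, Camkk1 had a signal of 550 ± 93.6 and was detected (limma adjusted p = 0.0148). It was lost without replicate 1 (limma adjusted p = 0.0556) and without replicate 2 (limma adjusted p = 0.0506). Camkk2 was not detected (344 ± 95.1 on its higher probe set, limma adjusted p = 0.471), nor was Ubash3b (179 ± 38.8).

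Listed targets of AMPK, direct or downstream, were detected for 23 of 29 measured genes (median distance 2.51 log2 units), against 56.1% of all genes. The count was 13 of 29 at the 99th percentile (26.1% of all genes). With muscle markers in the background list it was 12 of 29 (23.8% of all genes). Detected targets included Txnip, a regulator of glucose uptake and redox state (37700 ± 5609), Cpt1a, which admits fatty acids to mitochondria (14103 ± 1365), and Mff, a receptor for mitochondrial fission (10495 ± 861; SD, n = 3). Not detected were, among others, Pfkfb1, an enzyme of fructose bisphosphate control known from liver (38.1 ± 38.7), and Gys2, the glycogen synthase of liver (124 ± 43.7). Acaca, an acetyl-CoA carboxylase that AMPK phosphorylates, had signals of 2444, 2293 and 2423 on its higher probe set and was detected. The other Acaca probe set, tied to a RefSeq mRNA record, had 165, 183 and 166 and was not detected. Acacb, the mitochondrial counterpart of Acaca, had 738, 728 and 525 and was detected too. Ulk1, a kinase that starts autophagy, had signals of 2496, 2948 and 2854 on the higher of its 2 detected probe sets. Strada, Cab39l, Camkk1, Camkk2, Acaca, Acacb, Ulk1 and the single muscle and other markers were named after their values were seen. Transcript signals give no measure of phosphorylation or of AMPK activity.

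Genes of adenine nucleotide turnover were detected for 12 of 17 measured genes, against 56.1% of all genes. Their median distance was 2.53 log2 units, against 1.13 over all genes. The count was 8 of 17 at the 99th percentile (26.1% of all genes) and 8 of 17 with muscle markers in the background list (23.8%). Slc25a5 (44449 ± 3018) and Slc25a4 (17835 ± 1723; SD, n = 3), the carriers that exchange ADP for ATP across the inner mitochondrial membrane, lay 7.19 and 5.87 log2 units above the cutoff, and Aprt, which salvages adenine, 5.04 above it. Not detected were, among others, Slc25a31, the carrier known from testis (30.6 ± 34.0), and Ampd1, the AMP deaminase of skeletal muscle (85.9 ± 54.6). Slc25a25, a carrier of ATP and phosphate named after its values were seen, lost its call without replicate 2 (limma adjusted p = 0.0947).

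**Figure D5:**
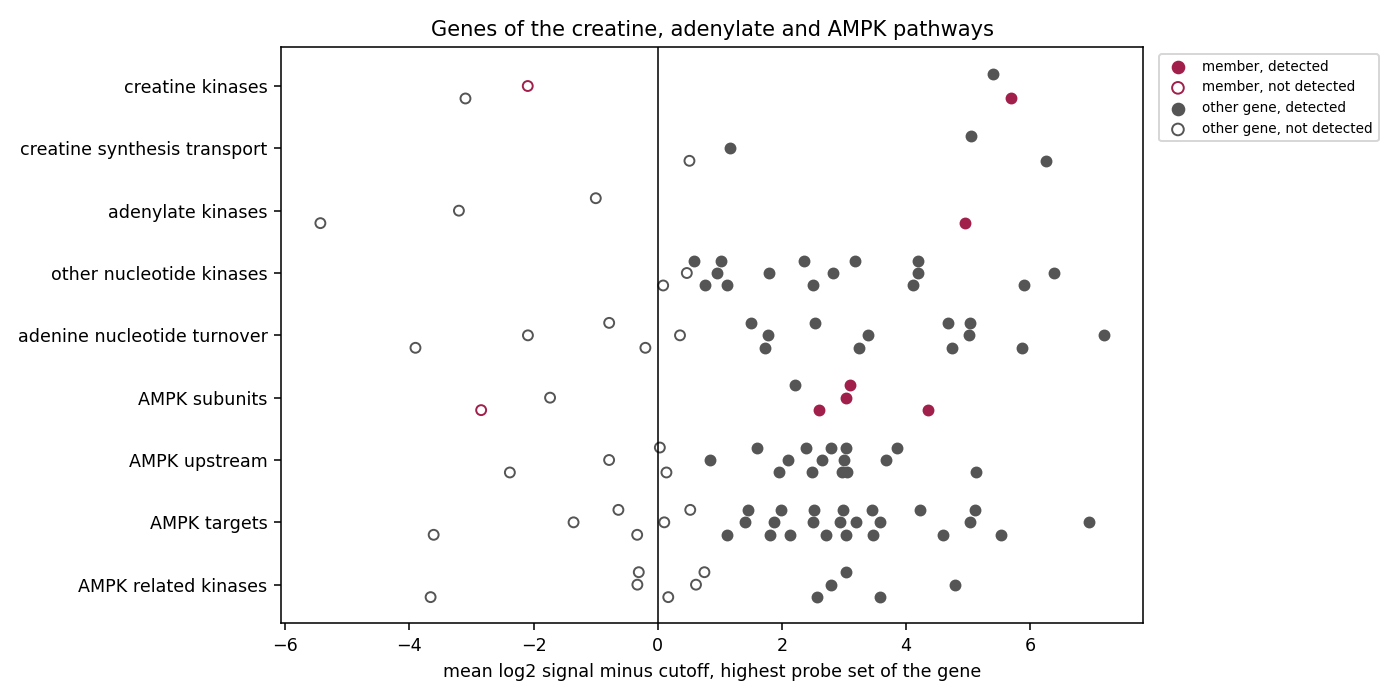
Mean log2 signal minus cutoff of the highest probe set of each measured gene (points) in 9 gene lists of creatine, nucleotide and AMPK biology, filled where a probe set of the gene was detected and red for the members. Ckb, Ak3, Prkaa1, Prkaa2, Prkab1 and Prkag1 are filled, and Ckm and Prkab2 are open and left of 0.

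The arrays carried the segment's own markers on all 3 preparations. All 14 thick ascending limb markers, among them Umod and Slc12a1, were detected, with no value under 1540 on the highest probe set of each. Among tubule cells, detected markers numbered 2 of 21 in the proximal tubule list, 6 of 8 in the thin limb list, 0 of 6 in the distal convoluted and connecting tubule list, 7 of 12 in the principal cell list and 2 of 6 in the intercalated cell list. Vessel and blood lists gave 7 of 11 (endothelium), 2 of 13 (mural cells and fibroblasts), 3 of 14 (leukocytes) and 1 of 7 (erythrocytes). Over all genes 56.1% were detected, and the principal cell (58.3%) and endothelial (63.6%) shares lay close to that. The counts do not measure how many cells of a type were present. Thin limb and endothelial markers had the highest summed signal on replicate 2 (33648, 82209 and 57467 for thin limb, 15997, 29056 and 24498 for endothelium). On replicate 2 the 7 detected member probe sets lay between 0.26 log2 units below and 0.21 above the mean of the other arrays.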

How the data were processed

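Biotin-labelled cRNA from 3 mTAL preparations was hybridised to Affymetrix rat arrays, per the labels' protocols. The authors deposited 1 linear intensity per probe set and array. How it was summarised and normalized is not given in the sources used here. With 2% trimmed at either end, each array had a mean of 1000, and log2 was taken as deposited. Of 31099 probe sets, 20826 had 1 gene, 436 several, 9780 none, and 57 were controls. The identifiers of 20758 were found in the RefSeq table, which changed 0 symbols. Distances from the cutoff were tested with limma 3.58.1 in R 4.3.3 (lmFit, eBayes), tested on simulated data. The number of arrays limits the precision.

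Members, gene lists, the background list and the tests were chosen with earlier results of these data known. Named were all members, all measured creatine kinase, adenylate kinase, AMPK subunit and creatine supply genes, of each other list the 3 highest detected genes and the 2 lowest, and the 3 genes most like the detected member of largest SD. Other genes named outside the rule serve as markers, background genes or controls, or are said to have been chosen later. Dck, Nme7, Mark2, Sik2, Sik1 and Melk were also named after their values were seen. Alternatives were other normalizations, a pseudocount, other cutoffs, 1 probe set per gene, a filter on low signals and leaving out each array.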

Additional observations from a re-analysis of the deposited data

How the results depend on the processing

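The counts of 7 detected member probe sets and 6 member genes were the same under quantile normalization, a common 75th percentile, a pseudocount of 16, the cutoff at the 90th percentile, the filter on low signals (under which 99.7% of all probe sets kept were called, and the undetected members were not tested) and without each array in turn (7 to 7 probe sets and 6 to 6 genes). With 1 probe set per gene the 6 genes were detected. The cutoff itself rests on few genes, since the probe sets near it were those of a few genes such as Lhb (444, 302 and 361) and Ins1 (375, 272 and 345). With the cutoff at the 99th percentile, 3 AMPK subunits, 7 genes acting on AMPK, 13 AMPK targets and 7 other nucleotide kinases were detected, against 26.1% of all genes. With muscle markers in the background list the counts were 3, 7, 12 and 7, with 3 AMPK-related kinases, against 23.8%. At the 90th percentile (65.7% of all genes) and with the TrpnX cutoff (77.8%), 10 AMPK-related kinases were detected, and with TrpnX 2 adenylate kinases. These follow from the height of the cutoff. Signs turned for Ckm with TrpnX (0.49 log2 units, adjusted p = 0.302) and for the RefSeq probe set of Prkaa1 at the 90th percentile (0.46, adjusted p = 0.156) and with TrpnX (1.90, adjusted p = 0.000173). Prkaa2 kept its sign but not its call at the 99th percentile and with muscle markers added. For the rest, 119 counts stayed within 1.5 times of the reported ones, and 130 distances kept their sign and their side of the threshold. SDs that moved by over 1.5 times included that of the RefSeq probe set of Prkaa1 (0.08 under quantile normalization, 0.17 as reported) and that of the non-RefSeq Prkab2 probe set (0.75 with the pseudocount, 1.56 as reported). No paired analysis was possible because there is 1 group.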

Other observations

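Of 17 measured nucleotide kinases other than adenylate kinases 15 were detected, against 56.1% of all genes. Cmpk1, which phosphorylates CMP and UMP, had a signal of 25385 ± 2098, the nucleoside diphosphate kinase Nme2 one of 18243 ± 3415, and the guanylate kinase Guk1 one of 5564 ± 582 (SD, n = 3). Not detected were Nme4, a mitochondrial nucleoside diphosphate kinase (332 ± 100.2, limma adjusted p = 0.639), and Cmpk2, known from interferon responses (438 ± 149, limma adjusted p = 0.20). Cmpk2 was detected without replicate 1 (limma adjusted p = 0.0287), Dck was lost without any 1 of the arrays (limma adjusted p = 0.0505 to 0.133) and Nme7 without replicate 3 (limma adjusted p = 0.051).

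Of 11 measured kinases related to AMPK, most of them known to be activated by LKB1, 5 were detected, against 56.1% of all genes. Nuak2 (8447 ± 1438), Mark3 (3665 ± 521) and Sik3 (2484 ± 49.9; SD, n = 3) lay 4.79, 3.59 and 3.03 log2 units above the cutoff, and Mark2 and Sik2 were also detected. Mark1 (38.5 ± 45.3) and Brsk1 (246 ± 57.4), known from neurons, were among those not detected. Sik1, an early-response gene, had signals of 320, 553 and 752 on replicates 1, 2 and 3 and was not detected (limma adjusted p = 0.0943), but was without replicate 1 (limma adjusted p = 0.0155), as was Melk (limma adjusted p = 0.033).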
